A study of Mus musculus with 15 samples.

Results

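The 29 genes described here encode the enzymes that build cholesterol, the proteins that sense it, and a few neighbours of that system. They were taken from a list of symbols, and all 29 were present among the 35519 genes of the transcript tables and in the authors' deposited table of gene TPM (a level scaled to transcript length and to the same total in every library). Of these, 18 are synthesis enzymes: 7 of the early mevalonate steps, 3 of the squalene and lanosterol steps and 8 of the late sterol steps. The others are 5 members of the SREBP sensing system, 3 genes of oxysterol formation and sterol transport, and 3 fatty acid desaturases. Each had a median of 1 to 28 reads over the libraries, with the oxysterol enzyme gene Cyp27a1 and the late synthesis gene Msmo1 the highest. None of the 13 with enough reads to be tested passed the test after microbead injection in Apoe-/- or wild-type retinas, nor between the genotypes. The 2 lowest estimates, for the sensing genes Srebf2 and Scap after microbeads in Apoe-/- retinas, were log2 fold changes of -1.29 ± 0.53 and -1.35 ± 0.55 (SE), both with an adjusted p of 0.7 by edgeR.

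The libraries are SMART-Seq2 bulk RNA libraries (full-length cDNA from small inputs) of microglia sorted from retinas of C57BL/6 mice aged 12 weeks. The groups are Apoe-/- with microbead injection (n = 4), Apoe-/- with sham injection (n = 4), wild type with microbead injection (n = 3) and wild type with sham injection (n = 4). Microbeads injected into the eye are a model of raised eye pressure in glaucoma. Cells were sorted as Fcrls+, CD11b+ and Ly6c-, and 100 to 600 cells came from each retina. Apoe-/- mice lack the gene in every cell and not in microglia alone, so no group isolates microglial Apoe. Retinas are numbered in the labels without a statement on separate mice, so p-values measure the spread between these libraries, part of which may be technical. Each genotype has its own plate letter in the names of the deposited tables, so genotype and plate letter cannot be told apart.

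Cells make cholesterol from acetyl units through mevalonate, farnesyl diphosphate, squalene and lanosterol. When sterols are scarce in the endoplasmic reticulum, SCAP carries the SREBP proteins to the Golgi, where proteases release the part that enters the nucleus and switches on the synthesis genes. When sterols are abundant, INSIG proteins hold SCAP back, and oxysterols such as those made by CH25H and CYP27A1 strengthen that brake. In nervous tissue, microglia take up lipid debris and hand cholesterol out on lipoproteins that carry apolipoprotein E, the protein missing in Apoe-/- mice.

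Upstream windows of 4 of the genes are shown as examples. Hmgcs1 and Msmo1 are synthesis enzymes, and Cyp27a1 has the highest level of the list. Insig1 is the sensing gene with the largest SD of TPM over libraries (2.61). Those of Srebf2 and Scap, the genes with the lowest estimates, are not shown. Each is the stretch of 250 bases before the transcript start from RefSeq, on build GRCm38.p6, written in the direction of the gene. Capitals mark the sterol regulatory element letters TCACNCCAC, the NF-Y box letters CCAAT and the E-box letters CACGTG, each on either strand, and no marked stretches overlap. The windows are at chr13:119690101-119690350, plus strand (Hmgcs1), chr8:64733579-64733828, minus strand (Msmo1), chr5:28071162-28071411, plus strand (Insig1), and chr1:74713285-74713534, plus strand (Cyp27a1).
Hmgcs1: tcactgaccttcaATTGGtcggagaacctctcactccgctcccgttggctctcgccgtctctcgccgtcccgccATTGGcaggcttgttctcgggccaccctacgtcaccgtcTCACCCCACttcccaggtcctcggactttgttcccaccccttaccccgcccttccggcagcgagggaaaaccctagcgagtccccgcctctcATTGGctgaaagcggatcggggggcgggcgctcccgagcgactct
Msmo1: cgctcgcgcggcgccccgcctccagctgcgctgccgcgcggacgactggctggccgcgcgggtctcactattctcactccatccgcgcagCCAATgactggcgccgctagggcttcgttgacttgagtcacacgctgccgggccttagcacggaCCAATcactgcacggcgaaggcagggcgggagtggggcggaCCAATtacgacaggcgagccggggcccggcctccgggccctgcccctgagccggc
Insig1: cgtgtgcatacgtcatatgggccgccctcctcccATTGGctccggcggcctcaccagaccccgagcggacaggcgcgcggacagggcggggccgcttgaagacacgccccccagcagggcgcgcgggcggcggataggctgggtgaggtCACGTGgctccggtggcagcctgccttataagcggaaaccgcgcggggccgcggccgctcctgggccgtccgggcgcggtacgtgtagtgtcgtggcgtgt
Cyp27a1: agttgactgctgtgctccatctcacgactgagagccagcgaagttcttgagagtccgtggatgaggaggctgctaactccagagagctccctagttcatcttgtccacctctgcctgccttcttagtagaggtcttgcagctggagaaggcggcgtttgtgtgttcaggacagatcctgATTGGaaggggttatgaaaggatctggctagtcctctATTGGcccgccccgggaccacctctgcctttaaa

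A window of 250 bases before and 50 bases after the start was on hand for 23 of the 29 genes. Among these, TCACNCCAC was in 1 gene, Hmgcs1 (4.35%), against 1.44% of all 27025 genes with such a window. CCAAT was in 19 of 23 (82.6%), against 41.1% of all genes, and CACGTG in 5 of 23 (21.7%), against 8.09%. GGGCGG, a box read by Sp1 that is not in capitals above, was in 21 of 23 (91.3%), against 38.2% of all genes. These are matches of letters and not measured binding.

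Reads on these genes were few in every library. Libraries held 458303 to 714838 reads in genes, and the 29 genes together held 86 to 379 of them, or 0.0187 to 0.0568%. Levels per library are given as CPM, in which reads are set against the library's TMM-normalised size. At 3 reads, taken as the limit of a count of 0, a library's floor was 3 to 13.3 CPM, and the highest floor was in Apoe-/- sham library 2. That limit covers counting error only. In bulk libraries, fewer cells of a type and less RNA per cell cannot be told apart. The whole list of microglia markers was above the filter on low counts, 10 of 10, with summed levels of 6800 to 13900 CPM over the libraries. Rod photoreceptor markers, 12 of 12 tested, summed to 178 to 2570 CPM in Apoe-/- microbead, 155 to 1620 in Apoe-/- sham, 97.6 to 644 in wild-type microbead and 569 to 2580 in wild-type sham libraries. Markers of Mueller glia, 8 genes without Apoe and 2 of them tested, summed to 90.2 to 151, 110 to 157, 128 to 291 and 104 to 163 CPM in the same order. How many reads of the 29 genes came from such other retinal cells was not tested. Gene models that hold major satellite repeats of mouse centromeres took 55.4 to 70.7%, 64.7 to 74.4%, 40.8 to 53.5% and 55.9 to 66.6% of gene reads in these groups. Apoe itself had 3 to 5 and 0 to 6 reads in Apoe-/- microbead and sham libraries, against 3894 to 15125 and 667 to 1225 in wild-type microbead and sham libraries.

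Of the 29 genes, 17 were measured above a few reads, meaning a median of at least 5 estimated reads over the 15 libraries. These are Hmgcs1 and Fdps of the mevalonate steps, Fdft1, Sqle and Lss of the squalene and lanosterol steps, and Msmo1, Ebp, Sc5d, Dhcr7 and Tm7sf2 of the late steps. The rest of the 17 are Srebf1, Srebf2, Scap, Insig1 and Insig2 of the sensing system, with Cyp27a1 and Fads1. The 12 below that mark are Acat2, Mvk, Pmvk, Mvd, Idi1, Cyp51, Nsdhl, Hsd17b7, Stard4, Ch25h, Fads2 and Scd2, with medians of 1 to 4.16 reads. In all, 13 genes had at least 1 read in all 15 libraries. The filter on low counts kept 13 of the 29 for testing, and all 13 are among the 17, while Fdft1, Sqle, Tm7sf2 and Insig2 were measured and not tested.

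**Figure D1:**
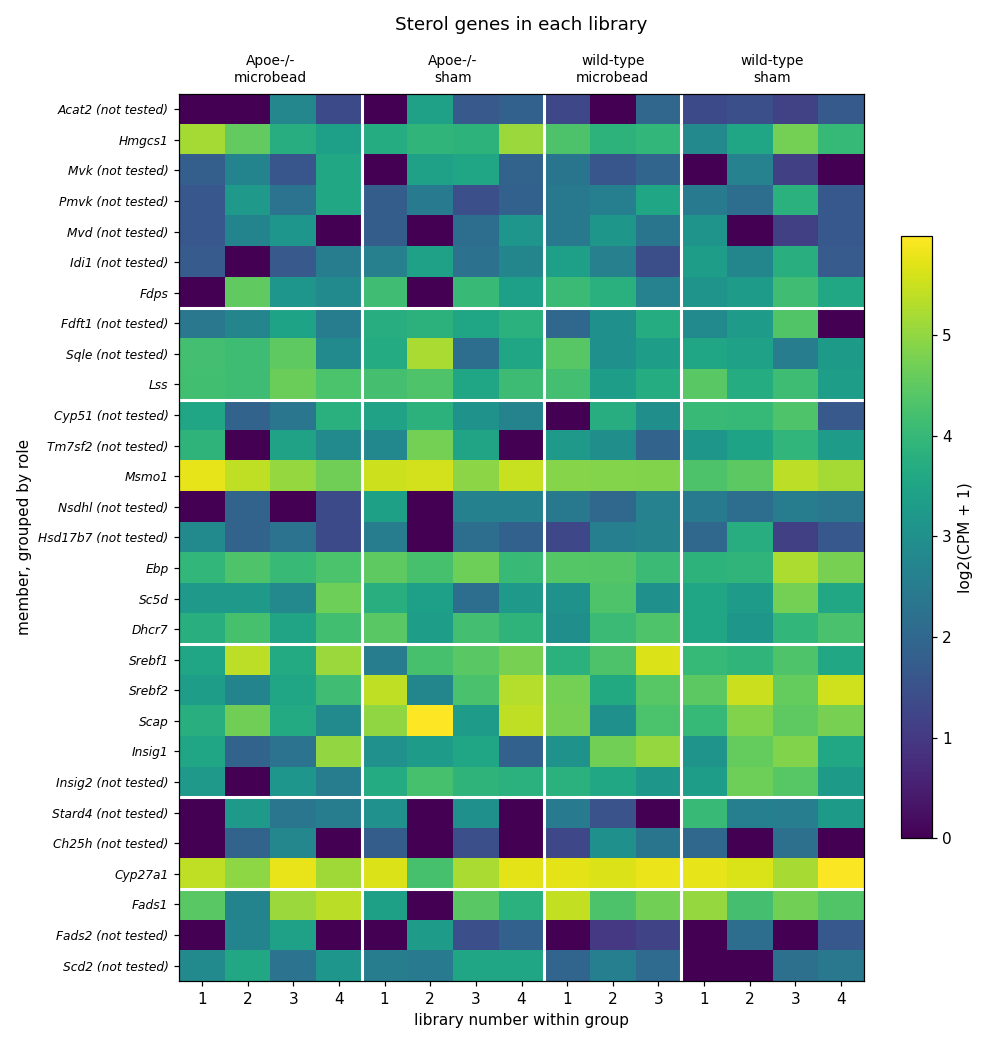
Level of each of the 29 genes in each of the 15 libraries, as log2(CPM + 1) in colour, with genes in rows by role and libraries in columns by group. Cyp27a1 and Msmo1 are the brightest rows across the groups, and 16 rows are marked as not tested because they fell below the filter on low counts.

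Compared per transcript length, Cyp27a1 was highest, at a mean of 9.39 TPM over the 15 libraries (1.24 to 23.2). Cyp27a1 encodes a mitochondrial hydroxylase that turns cholesterol into an oxysterol. Msmo1, a methylsterol oxidase of the late steps, followed at 5.58 TPM (2.97 to 11 over libraries), then Ebp, a sterol isomerase, at 4.68 TPM and Dhcr7, which makes cholesterol from its last precursor in that branch, at 3.51 TPM. Insig2, Hmgcs1, Sc5d, Srebf1, Srebf2, Insig1, Fads1, Fdps and Scap lay between 2.80 and 2.11 TPM, a span smaller than the SD over libraries of any of them (1.38 to 2.61 TPM). The lowest were Fads2 at 0.265, Scd2 at 0.269 and Acat2 at 0.332 TPM.

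A yardstick for such levels came from 1497 receptor genes of smell, pheromone and taste, taken here as genes without a role in microglia. The median of these receptor genes was 0.218 TPM, their 90th percentile 1.51 TPM and their 95th percentile 3.33 TPM. Of the 29 genes, 4 (Cyp27a1, Msmo1, Ebp and Dhcr7) were above the 95th percentile. All 4 are among the 13 tested genes of the list, beside 59.5% of all tested genes. Above the 90th percentile were 15 of the 29. Of the 13 tested genes 12 were above it, beside 88.7% of all tested genes.

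**Figure D2:**
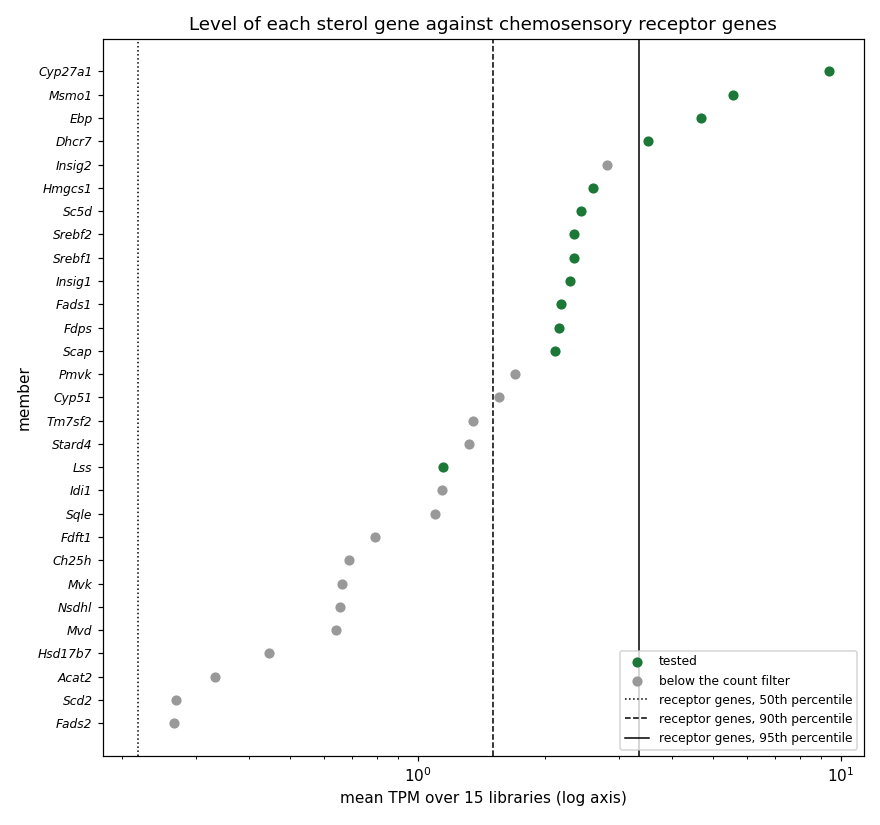
Mean level of each of the 29 genes over 15 libraries in TPM on a log axis, with green points for the 13 tested genes and grey points for the 16 below the filter. Vertical lines mark the 50th, 90th and 95th percentiles of 1497 receptor genes at 0.218, 1.51 and 3.33 TPM, and 4 genes lie to the right of the last line.

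The reads also divided unevenly between coding and other transcripts. In GENCODE, a retained-intron model is a transcript of a gene that keeps an intron and is not annotated as coding. For Lss, lanosterol synthase, such models held 87.8% of its 131 reads summed over libraries, for Tm7sf2, a sterol reductase, 80%, and for Msmo1 61.2%. For Sqle, squalene epoxidase and a control point of the pathway, they held 55.5%, for Srebf2 51.7%, for Stard4 51.2%, for Hmgcs1 36.3% and for Ebp 30.8%. Srebf1, Sc5d, Fdft1 and Pmvk had none, and in Insig1 97.6% of 140 reads were on the coding model. Of the list, 5 genes share exon sequence with a neighbour that has reads, and the strand setting of the counting is not given in the sources used here. They are Fdft1 with Ctsb (13898 reads), Cyp51 with Akap9 (887), Srebf1 with Rai1 (229), all on the opposite strand, and Tm7sf2 with Vps51 (277) and Fdps with Gm43738 (1 read) on the same strand, so their counts are uncertain. Counts of Acat2, Idi1, Fads1, Fads2 and Scd2 could likewise be shared with the related genes Acat3, Idi2, Fads3, Scd1, Scd3 and Scd4, which held 10 to 34 reads each.

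No gene of the list passed the test in any of the 5 comparisons made. Those comparisons set microbead against sham in Apoe-/- and in wild type, set the 2 responses against each other, and set Apoe-/- against wild type under each injection. With edgeR's quasi-likelihood test and Benjamini-Hochberg adjustment over 6521 genes at 0.05, 0 of 13 tested genes were called each time. Of all tested genes, 0% were called for microbead against sham in Apoe-/-, 0.199% in wild type, 0% for the difference between responses, and 0.0153% and 0.046% for Apoe-/- against wild type in sham and microbead retinas. With so few calls among all genes, a count of 0 in 13 does not set these genes apart. At an unadjusted p under 0.05 the count was 2 of 13 for microbead against sham in Apoe-/- (6.95% of all genes) and 0 of 13 in the others, where 7.87% of all genes passed in wild type, 3.39% for the difference, and 8.68% and 7.19% between genotypes in sham and microbead retinas. DESeq2 called 0 of the 13 in 4 of the comparisons, and gave none of the 13 an adjusted p for Apoe-/- against wild type in microbead retinas. For no tested gene were the libraries of 2 compared groups fully apart, 0 of 13, beside 2.51% of all genes for microbead against sham in Apoe-/-, 10.5% in wild type, and 3.68% and 6.82% between genotypes in sham and microbead retinas.

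Summed over the pathway, the synthesis enzymes overlapped in level between all 4 groups. The 18 enzymes summed to 202, 196, 179 and 180 CPM in Apoe-/- microbead and to 209, 238, 176 and 198 CPM in Apoe-/- sham libraries. In wild type they summed to 176, 180 and 166 CPM in microbead and to 159, 159, 270 and 160 CPM in sham libraries. The means were 189 ± 11.6, 205 ± 25.6, 174 ± 7.21 and 187 ± 55.6 CPM (SD, n = 4, 4, 3 and 4) in that order, and all 4 ranges overlap. The value of 270 CPM stands apart and belongs to wild-type sham library 3. Rod markers summed to 2230 CPM in that library and to 2580 CPM in wild-type sham library 4, which had 160 CPM of the enzymes. By step, the mevalonate enzymes averaged 48.1 ± 10.1 in Apoe-/- microbead, 50.1 ± 10.4 in Apoe-/- sham, 49.1 ± 8.44 in wild-type microbead and 44.6 ± 18.3 CPM in wild-type sham libraries. For the squalene and lanosterol enzymes the means were 40.6 ± 11, 43.6 ± 18.4, 32.4 ± 8.90 and 31.6 ± 10.2 CPM, and for the late enzymes 101 ± 16.4, 112 ± 16.4, 92.6 ± 16.7 and 111 ± 32.6 CPM, in the same order of groups.

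Hmgcs1, HMG-CoA synthase, is the most abundant mevalonate enzyme of the list per transcript length, at 2.60 TPM (chr13:119690379-119708260, plus strand, mm10). Hmgcs1 had 34.96, 22.2, 12.3 and 9.3 CPM in Apoe-/- microbead libraries, against 12.03, 14.1, 13.7 and 32.6 CPM in Apoe-/- sham libraries. Wild-type values were 18.99, 13.5 and 14.6 CPM in microbead libraries and 6.1, 10.6, 25.6 and 15.1 CPM in sham libraries. The group ranges overlap, and the high values are single libraries of different groups. Its log2 fold change for microbead over sham was 0.06 ± 0.52 (SE) in Apoe-/-, with a 95% interval of -1.03 to 1.15, and 0.12 ± 0.52 in wild type (-0.98 to 1.21). Both intervals reach past a 2-fold increase, so a change of that size was not excluded by these libraries.

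Lss, at 1.15 ± 0.67 TPM, and Sqle, at 1.10 ± 0.63 TPM (SD over 15 libraries), did not differ in level beyond that spread, and of these Lss was tested (chr10:76531588-76557138, plus strand). Lss had 17.1, 16.4, 24.02 and 18.6 CPM in Apoe-/- microbead libraries, against 17.5, 19.1, 10.4 and 16.1 CPM in Apoe-/- sham libraries. Among wild-type libraries, it had 17.3, 9 and 12.01 CPM after microbeads, against 20.7, 11.99, 16.5 and 9.1 CPM after sham injection. All ranges overlap. For Apoe-/- over wild type in microbead retinas its log2 fold change was 0.57 ± 0.41 (edgeR, adjusted p = 0.793). For microbead over sham it was 0.35 ± 0.41 in Apoe-/- (adjusted p = 0.867) and -0.25 ± 0.41 in wild type (adjusted p = 0.923).

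Msmo1 had the most reads of any synthesis enzyme, 10 to 34 per library (chr8:64718139-64733792, minus strand). Msmo1 had 53.5, 41.5, 31.6 and 24.9 CPM in Apoe-/- microbead libraries, against 44.8, 46.3, 29.7 and 43.9 CPM in Apoe-/- sham libraries. The wild-type libraries had 28.6, 28.2 and 27.9 CPM with microbeads and 19, 21.2, 40.7 and 35.1 CPM with sham injection. Of the 4 Apoe-/- sham libraries, 3 lie above all wild-type libraries, and 1 lies within the wild-type sham range. These levels sum all Msmo1 transcripts. Its main coding transcript held 0, 4.4, 19.6 and 26.6 reads in Apoe-/- microbead, Apoe-/- sham, wild-type microbead and wild-type sham libraries. A retained-intron transcript held 47.3, 40.4, 40.6 and 43.3 in that order. A further transcript not annotated as coding held 26, 17, 7 and 3. These reads are summed over each group and not scaled for depth, and single transcripts were not tested. At gene level, the log2 fold change for Apoe-/- over wild type was 0.47 ± 0.32 in sham retinas (edgeR, adjusted p = 0.7). For microbead over sham it was -0.11 ± 0.32 in Apoe-/- (-0.79 to 0.56) and -0.04 ± 0.33 in wild type (-0.74 to 0.66). Msmo1 and Cyp27a1 are the 2 genes of the list whose intervals lie within a 2-fold change either way in both of these comparisons, beside 27.8% and 27.6% of all tested genes in Apoe-/- and wild type.

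Sc5d, a sterol desaturase of the late steps, had the largest ratio of SD to mean TPM of the tested late enzymes (chr9:42251595-42264256, minus strand). Sc5d had 8.3, 8.2, 6.04 and 24.5 CPM in Apoe-/- microbead libraries, against 12.4, 9.4, 3.5 and 8.2 CPM in Apoe-/- sham libraries. Wild-type values were 7.2, 19.1 and 7 CPM in microbead libraries and 10.6, 8.7, 25.4 and 10.8 CPM in sham libraries. In 3 of the groups a single library holds the high value. The difference between responses was 0.99 ± 0.89 on the log2 scale (edgeR, adjusted p = 0.9997), from 0.66 ± 0.66 for microbead over sham in Apoe-/- and -0.33 ± 0.60 in wild type. Without wild-type microbead library 2 the difference was 1.67 and the wild-type value -1.01. The remaining tested enzymes, Fdps, Ebp and Dhcr7, had log2 fold changes of -0.47, -0.25 and -0.12 for microbead over sham in Apoe-/- and of 0.04, -0.29 and 0.15 in wild type.

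**Figure D3:**
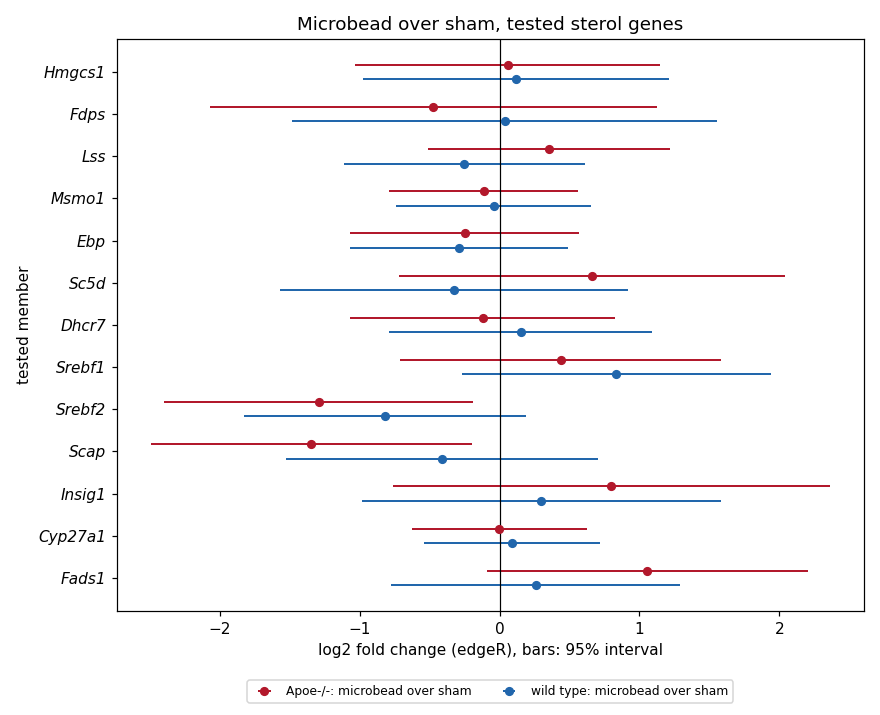
Log2 fold change of microbead over sham for the 13 tested genes from edgeR, red for Apoe-/- and blue for wild type, with bars for the 95% interval. Srebf2 and Scap in Apoe-/- are the 2 estimates whose bars do not reach 0, and neither passed after adjustment over all genes.

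In the sensing system, 2 genes had the lowest estimates for microbead against sham in Apoe-/- retinas. Srebf2 encodes the SREBP protein that mainly drives cholesterol synthesis (chr15:82147181-82205379, plus strand). Its estimated reads were 4, 2, 5 and 11 in Apoe-/- microbead and 17, 1, 10 and 15 in Apoe-/- sham libraries. Srebf2 had 9.2, 5.5, 10.4 and 16.7 CPM in Apoe-/- microbead libraries, against 41.5, 5.7, 18.2 and 38.9 CPM in Apoe-/- sham libraries. Among wild-type libraries, it had 25.4, 11.4 and 20.5 CPM after microbeads, against 21.3, 44.6, 22.6 and 45.6 CPM after sham injection. Apoe-/- sham library 2 lies among the microbead libraries and the other 3 sham libraries lie above them. The log2 fold change in Apoe-/- was -1.29 ± 0.53 (edgeR, adjusted p = 0.7), and in wild type it was -0.82 ± 0.48 (adjusted p = 0.716). Between genotypes in microbead retinas it was -0.80 ± 0.55 (adjusted p = 0.789). The difference between the responses of the genotypes was -0.48 ± 0.71 (adjusted p = 0.9997), with an interval of -1.96 to 1.01. Over the alternative fits run for this comparison the Apoe-/- value ran from -1.71 to -0.80, with adjusted p from 0.369 to 0.967. In a fit of only the Apoe-/- libraries, both Srebf2 and Scap fell below the filter on low counts and got no value. The coding transcript Srebf2-201 held 7.3 of the reads of Apoe-/- microbead, 8.9 of Apoe-/- sham, 14 of wild-type microbead and 47.9 of wild-type sham libraries, summed over the libraries of a group. A retained-intron transcript, Srebf2-205, held 9.2, 28.9, 19.9 and 26.0 in that order.

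Scap encodes the escort that carries the SREBP proteins to the Golgi (chr9:110333288-110384950, plus strand). Scap had 12.4, 24.6, 11.7 and 6.2 CPM in Apoe-/- microbead libraries, against 30.9, 62.2, 8.7 and 41.7 CPM in Apoe-/- sham libraries. The wild-type libraries had 26.1, 7 and 18.7 CPM with microbeads and 15.2, 27.96, 21.6 and 25.8 CPM with sham injection. The value of 62.2 CPM is from Apoe-/- sham library 2, the library with the smallest TMM-scaled size (225227), and rests on 14 reads. Its log2 fold change for microbead over sham was -1.35 ± 0.55 in Apoe-/- (edgeR, adjusted p = 0.7) and -0.41 ± 0.53 in wild type (adjusted p = 0.891). The difference between these responses was -0.93 ± 0.77 (adjusted p = 0.9997). For Scap the alternative fits gave -1.74 to -0.72 in Apoe-/-, with adjusted p from 0.353 to 0.967.

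Srebf1 encodes the SREBP protein that mainly drives fatty acid synthesis and is itself a target of the sterol receptors LXR (chr11:60199089-60222581, minus strand). Srebf1 had 10.4, 40.97, 11.7 and 32.7 CPM in Apoe-/- microbead libraries, against 4.8, 17.8, 20.9 and 26.1 CPM in Apoe-/- sham libraries. Wild-type values were 13.04, 19 and 49.4 CPM in microbead libraries and 15.2, 13.98, 19.2 and 10.8 CPM in sham libraries. A single wild-type microbead library holds the highest value, and the other 2 lie within the wild-type sham range. The log2 fold change for microbead over sham was 0.44 ± 0.55 in Apoe-/- (edgeR, adjusted p = 0.88) and 0.83 ± 0.53 in wild type (adjusted p = 0.737).

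Insig1, which retains SCAP in the endoplasmic reticulum and is itself switched on by SREBP, ran from 2.6 to 32.01 CPM over libraries (chr5:28071363-28078662, plus strand). Insig1 had 10.4, 2.7, 3.9 and 31.1 CPM in Apoe-/- microbead libraries, against 7.1, 8.9, 10.4 and 2.6 CPM in Apoe-/- sham libraries. Among wild-type libraries, it had 7.2, 24.99 and 32.01 CPM after microbeads, against 7.6, 22.7, 27.6 and 10.8 CPM after sham injection. The Apoe-/- sham libraries are all low, and each of the other groups holds both low and high libraries. The Insig1 reads in Apoe-/- sham libraries are 3, 2, 6 and 1, and the floors there 7.1, 13.3, 5.2 and 7.8 CPM. Apoe-/- sham libraries 1, 2 and 4 are thus at or below the limit of a count of 0. For Apoe-/- over wild type in sham retinas the log2 fold change was -1.23 ± 0.71 (edgeR, adjusted p = 0.633). With the satellite share as a covariate it was -0.30 (adjusted p = 0.998). For microbead over sham it was 0.80 ± 0.75 in Apoe-/- (adjusted p = 0.825) and 0.30 ± 0.61 in wild type (adjusted p = 0.945). Early-response genes of the kind induced when tissue is dissociated, such as Fos and Jun, also varied strongly. Their 12 listed genes, 10 of them tested, summed to 155 to 8680 CPM in Apoe-/- microbead, 212 to 2350 in Apoe-/- sham, 1410 to 8440 in wild-type microbead and 228 to 3960 CPM in wild-type sham libraries. Their part in the Insig1 levels was not tested.

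Insig2, the other INSIG gene, had the highest level per length of the sensing system at 2.80 TPM but fell below the filter on low counts and was not tested (chr1:121304353-121332589, minus strand). Insig2 had 8.3, 0, 7.8 and 4.7 CPM in Apoe-/- microbead libraries, against 11.9, 17.8, 13.9 and 13.04 CPM in Apoe-/- sham libraries. The wild-type libraries had 13.04, 11 and 8 CPM with microbeads and 9.1, 24.5, 20.4 and 8.6 CPM with sham injection. All Apoe-/- microbead libraries lie below all Apoe-/- sham libraries in Insig2, with means of 5.2 ± 3.8 and 14.2 ± 2.5 CPM (SD, n = 4 each). Groups were apart for 2.51% of all tested genes there, a share that leaves out genes below the filter. Insig2 was not alone among genes below the filter. Fdft1 was at most 10.13 CPM in Apoe-/- microbead and at least 10.55 CPM in Apoe-/- sham libraries. Groups were also apart for Stard4 (wild-type microbead below sham) and Nsdhl (Apoe-/- below wild-type microbead). Scd2 was apart too, with Apoe-/- sham above wild-type sham. These separations rest on counts near the 3-read floor. Nsdhl had 0, 1, 0 and 1 reads in Apoe-/- microbead, against 3, 3 and 4 in wild-type microbead libraries. Scd2 had 2, 1, 6 and 4 reads in Apoe-/- sham, against 0, 0, 3 and 2 in wild-type sham libraries. The share of all genes below the filter whose groups were apart was not computed, so these do not set the list apart. The reads behind the Insig2 values are 4, 0, 4 and 3 in Apoe-/- microbead, against 5, 4, 8 and 5 in Apoe-/- sham libraries. In a fit with no filter on low counts, where the 16 genes below the filter could also be tested, its log2 fold change for microbead over sham was -1.20 ± 0.67 in Apoe-/- (edgeR, adjusted p = 0.731) and -0.52 ± 0.59 in wild type (adjusted p = 0.852). None of the 16 had an unadjusted p under 0.05 in any comparison in that fit, 0 of 16 each time. The 5 sensing genes summed to 50.7, 73.8, 45.4 and 91.4 CPM in Apoe-/- microbead and to 96.2, 112, 72.2 and 122 CPM in Apoe-/- sham libraries. In wild type they summed to 84.8, 73.4 and 129 CPM in microbead and 68.3, 134, 111 and 102 CPM in sham libraries, and the ranges overlap in both genotypes.

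**Figure D4:**
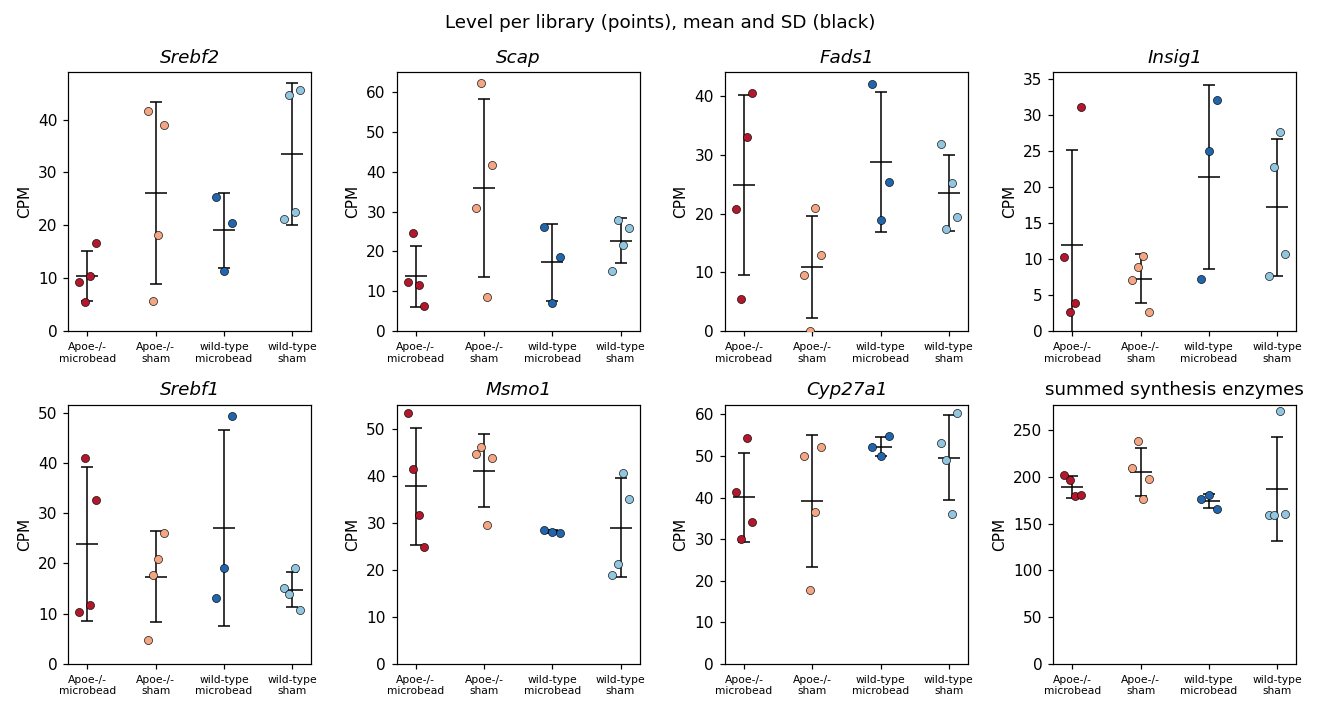
Level in CPM of 7 genes and of the summed 18 synthesis enzymes, 1 point per library, with the mean and SD in black and groups from left to right as Apoe-/- microbead, Apoe-/- sham, wild-type microbead and wild-type sham. In Apoe-/- sham libraries Srebf2 spreads from 5.7 to 41.5 CPM and Scap from 8.7 to 62.2 CPM, and a single wild-type sham library is at 270 CPM in the sum.

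Of the oxysterol and transport genes, Cyp27a1 was the best measured gene of the list, with 395 reads over all libraries (chr1:74713574-74737892, plus strand). Cyp27a1 had 41.4, 30.1, 54.4 and 34.2 CPM in Apoe-/- microbead libraries, against 49.96, 17.8, 36.5 and 52.2 CPM in Apoe-/- sham libraries. Wild-type values were 52.1, 49.99 and 54.7 CPM in microbead libraries and 53.2, 48.9, 35.97 and 60.2 CPM in sham libraries. Apoe-/- sham library 2 is lowest, and the 3 wild-type microbead libraries lie close together. The log2 fold change for Apoe-/- over wild type in microbead retinas was -0.38 ± 0.31 (edgeR, adjusted p = 0.822). For microbead over sham it was -0.0025 ± 0.30 in Apoe-/- (-0.63 to 0.62) and 0.09 ± 0.30 in wild type (-0.54 to 0.72). Ch25h, the cholesterol hydroxylase of activated macrophages, had 0 reads in 6 of 15 libraries and at most 7, and Stard4, a sterol carrier, had 0 reads in 4 and at most 10.

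Fads1, which makes double bonds in polyunsaturated fatty acids, was the only tested gene of the 3 fatty acid desaturases (chr19:10182888-10196877, plus strand). Fads1 had 20.7, 5.5, 33.05 and 40.5 CPM in Apoe-/- microbead libraries, against 9.5, 0, 20.9 and 13.04 CPM in Apoe-/- sham libraries. Among wild-type libraries, it had 42, 19 and 25.3 CPM after microbeads, against 31.9, 17.5, 25.2 and 19.4 CPM after sham injection. The Apoe-/- sham libraries are at or below the middle of the other groups, with 0 reads in library 2, and the Apoe-/- microbead group holds both low and high libraries. The log2 fold change for microbead over sham was 1.06 ± 0.55 in Apoe-/- (edgeR, adjusted p = 0.711) and 0.26 ± 0.49 in wild type (adjusted p = 0.94). The difference between responses was 0.80 ± 0.74 (adjusted p = 0.9997), and Apoe-/- over wild type in sham retinas was -0.93 ± 0.55 (adjusted p = 0.635). Fads2 had 16 and Scd2 41 reads over all libraries.

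As a group, the 13 tested genes were centred near 0 in each comparison. The median log2 fold change for microbead over sham was -0.0025 in Apoe-/-, beside 0.0079 for all tested genes, with 6 of 13 positive (50.8% of all genes). In wild type it was 0.036, beside -0.011, with 7 of 13 positive (49.1%). For the difference between responses it was -0.07, beside 0.0045, with 5 positive (50.4%). For Apoe-/- over wild type it was -0.03 in sham retinas, beside -0.01, and -0.15 in microbead retinas, beside 0.01, with 6 and 5 of 13 positive (48.9% and 51.0%). The 95% interval lay within a 4-fold change either way for 7 of 13 genes in Apoe-/- and 13 of 13 in wild type for microbead over sham, beside 86.8% and 88.1% of all genes. The median SE of the 13 was 0.529 and 0.495 in these comparisons, and that of all genes 0.429 and 0.423.

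**Figure D5:**
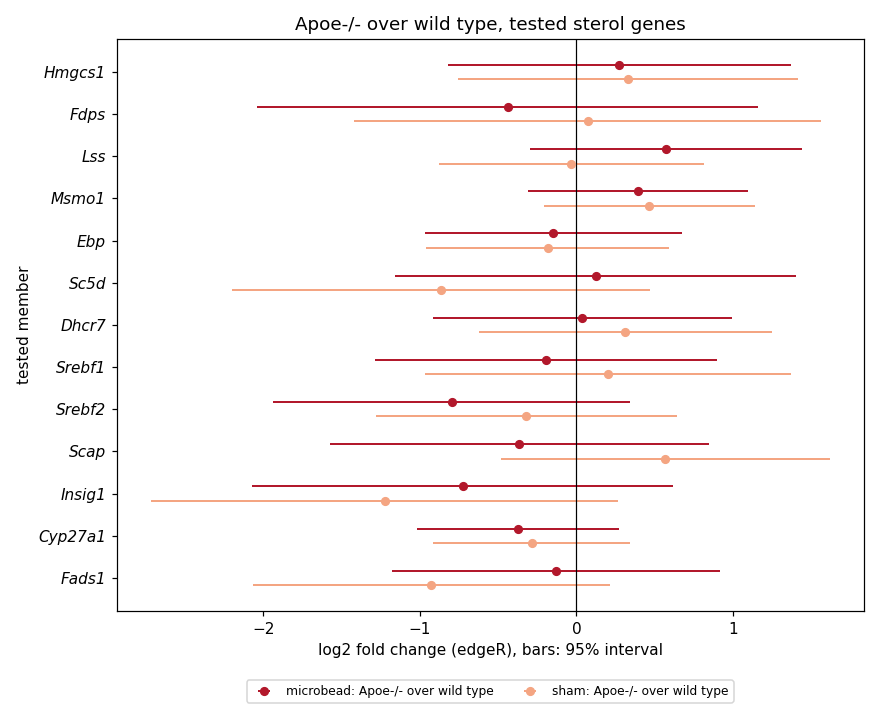
Log2 fold change of Apoe-/- over wild type for the 13 tested genes from edgeR, red for microbead and pale orange for sham retinas, with bars for the 95% interval. Every bar crosses 0, and the lowest estimate is -1.23 for Insig1 in sham retinas (-0.30 with the satellite share as a covariate).

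Neighbouring pathway genes gave no adjusted calls either. A list of 13 further sterol genes held, among others, the SREBP protease genes Mbtps1 and Mbtps2. Of these, 9 were tested. Their median log2 fold change for microbead over sham was -0.14 in Apoe-/- and -0.03 in wild type. Smallest in p in Apoe-/- were Erlin2 (-0.83 ± 0.37, adjusted p = 0.7), which takes part in protein degradation at the endoplasmic reticulum, and Ggps1 (-0.97 ± 0.46, adjusted p = 0.7), which makes geranylgeranyl diphosphate, both by edgeR. In wild type they were Mbtps2 (-0.70 ± 0.48, adjusted p = 0.75) and Erg28 (0.60 ± 0.48, adjusted p = 0.785), a scaffold of sterol enzymes known from yeast. Of 12 fatty acid synthesis genes under SREBP, 5 were tested, with medians of 0.06 in Apoe-/- and -0.23 in wild type. Mid1ip1 (-0.41 ± 0.36) and Lpin1 (0.22 ± 0.86) had the smallest p in Apoe-/-, and Acly (0.43 ± 0.34), which makes cytosolic acetyl-CoA, and Lpin1 (-1.19 ± 0.95) in wild type. Leaving out 1 library moved Lpin1 to between -0.22 and 0.69 in Apoe-/- and between -2.71 and -0.74 in wild type, and Acly in wild type to 0.11 without microbead library 2. Erlin2 in Apoe-/- became -0.48 ± 0.39 without sham library 3, and Mbtps2 in wild type -1.125 ± 0.54 without microbead library 1.

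Of 13 listed genes of cholesterol efflux and ester handling, many of them under LXR, 10 were tested. In wild type their median for microbead over sham was 0.77, with 8 of 10 positive (49.1% of all genes). At an unadjusted p under 0.05 there were 7 of 10 (7.87% of all genes), and 0 of 10 passed after adjustment (0.199%). The 7 became 1 without wild-type microbead library 2, 4 without wild-type sham library 3, and 1 with either the rod markers or the satellite share as a covariate, and the median without microbead library 2 was 0.54. The satellite share was 40.8 to 53.5% in wild-type microbead and 55.9 to 66.6% in wild-type sham libraries. A fit with that covariate therefore cannot cleanly separate the share from the injection. Nceh1, a cholesteryl ester hydrolase, averaged 57.8 ± 24.5 CPM in wild-type microbead and 18.1 ± 9.94 CPM in wild-type sham libraries, a log2 fold change of 1.64 ± 0.45 (edgeR, adjusted p = 0.245). Without wild-type microbead library 2 it was 1.22 ± 0.51 (adjusted p = 1.0). Plin2, a coat protein of lipid droplets, had 15.9, 76.0 and 27.8 CPM in wild-type microbead libraries, against 18.2, 17.5, 9.59 and 10.8 CPM in wild-type sham libraries. Microbead library 1 lies within the sham range and library 2 is far above it. The log2 fold change was 1.53 ± 0.46 (edgeR, adjusted p = 0.33), and 0.65 ± 0.46 (adjusted p = 1.0) without library 2. In Apoe-/- the median was 0.22, with 6 of 10 positive (50.8% of all genes) and 0 of 10 at an unadjusted p under 0.05 (6.95%), and Lpcat3 (0.58 ± 0.32) and Npc2 (0.50 ± 0.28) had the smallest p. Npc2 was 0.16 ± 0.26 without Apoe-/- microbead library 2. For the difference between responses the median was -0.52, with 3 of 10 at an unadjusted p under 0.05 (3.39%) and 0 after adjustment. For Apoe-/- over wild type the median was -0.54 in microbead retinas, with 4 of 10 at an unadjusted p under 0.05 (7.19%), and -0.0032 in sham retinas, with 1 of 10 (8.68%). Leaving out 1 library gave 0 to 5 in place of the 3 and 0 to 6 in place of the 4, with 0 for both without wild-type microbead library 2. Earlier results for these same libraries already showed the efflux genes higher in wild type, so their direction is no independent evidence.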

How the data were processed

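RNA of sorted retinal microglia was measured in 15 libraries. The authors deposited Salmon transcript tables with estimated counts of reads, TPM and lengths, per the file headers, and a series table of gene TPM that the authors deposited as values scaled to a fixed library total. Effective lengths in bases, as deposited, served length offsets only. The submitters' processing notes name Salmon 1.4.0, R 4.0.3, DESeq2 1.30.1 and mm10. Read filters and the library type: not given in the sources used here.

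Estimated counts were summed per gene with GENCODE M21 and rounded. Transcripts without a gene in that release held 0.217 to 0.354% of reads and were left out. TPM summed in this way equalled the deposited gene TPM for all 29 genes, at a relative tolerance of 0.001. The test was that of edgeR 4.0.16 under R 4.3.3 (TMM, filterByExpr, quasi-likelihood F-test, two-sided) in 1 model of 15 libraries in 4 groups. P-values were adjusted by Benjamini-Hochberg over 6521 genes, with a threshold of 0.05. The step was also run on simulated data with changes placed in wild-type microbead libraries only. That run checked the procedure and gives no measure of power for the genes of this list. All pairs of libraries within a group differed beyond counting noise (chi-square over its degrees of freedom at least 2.21).

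Values per library are given for genes with 1 of the 3 smallest p-values among those tested in any comparison or with the highest mean TPM of their role, and for any that passed the threshold (none did). From each related list, the 2 genes with the smallest p in each microbead comparison are named. Some genes of the related sterol list are not reported here and were left out of its counts and medians. The members and lists were chosen with earlier results of these data known. DESeq2 1.42.0, limma 3.58.1 on log2(TPM + 1), other filters and scalings, covariates, a block and leaving out each library were tried as alternatives. Motifs were sought in RefSeq windows of GRCm38.p6.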

Additional observations from a re-analysis of the deposited data

Results flagged for a closer look

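Single libraries stood apart from the rest of their group in 8 of 60 sets of 4 libraries, by a gap to the nearest library larger, relative to the group's range, than Dixon's 95% critical value. Chance flags about 1 in 20 such groups, and genes and their sums are not independent. No cause was tested for any of them.

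Wild-type sham library 3 accounts for 3 of the 8. Its summed synthesis enzymes were at 270 CPM, beside 159, 159 and 160 CPM in the other wild-type sham libraries, its summed mevalonate enzymes at 72.0 CPM, beside 34.7, 35.5 and 36.4 CPM, and its Sc5d at 25.4 CPM, beside 8.74, 10.6 and 10.8 CPM. In Apoe-/- microbead libraries, Sc5d was at 24.5 CPM in library 4, beside 6.04, 8.20 and 8.29 CPM. Also in that group, the summed mevalonate enzymes were at 63.2 CPM in library 2, beside 41.8, 43.6 and 43.9 CPM, and the summed oxysterol and transport genes at 64.3 CPM in library 3, beside 38.9, 41.0 and 41.4 CPM. In Apoe-/- sham libraries, Hmgcs1 was at 32.6 CPM in library 4, beside 12.0, 13.7 and 14.1 CPM, and Msmo1 was low at 29.7 CPM in library 3, beside 43.9, 44.8 and 46.3 CPM.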

How the results depend on the processing

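No gene of the list passed the threshold in any of 26 alternatives, 15 of which leave out 1 library each, but DESeq2 gave none of them an adjusted p between genotypes in microbead retinas, so no call was possible there. Over 1720 adjusted p-values of list genes in these alternatives the smallest adjusted p was 0.0719, for Cyp27a1 between genotypes in microbead retinas with limma on log2(TPM + 1), where its value was -1.43 and the median of all genes was -0.73. That scale moved the median of all genes by 0.18 and 0.58 for microbead over sham in Apoe-/- and wild type, -0.43 for the difference between responses and -0.30 for Apoe-/- over wild type in sham retinas. The list's own medians on it were 0.51 in wild type, -0.58 for the difference, and -0.45 and -0.64 between genotypes in sham and microbead retinas. With the satellite share as a covariate they were 0.19 for the difference and 0.18 between genotypes in microbead retinas. That share was lower in all wild-type microbead libraries than in any wild-type sham or Apoe-/- microbead library. Fits with it therefore cannot cleanly separate the share from those comparisons.

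Counts over all genes moved more, and the cause was not tested. For microbead over sham in wild type, 13 genes passed in the fit reported, 36 with DESeq2, 124 with no filter on low counts, 5 with at least 10 reads in 7 libraries, 84 on log2(TPM + 1), 21 without satellite models, 33 in a fit of the compared groups only, 1 with the mean log2 CPM of rod markers as a covariate and 5 with the satellite share as one. Between genotypes in microbead retinas, 3 became 26 with DESeq2, 73 with no filter, 186 on log2(TPM + 1), and 1 with the stricter filter, with length offsets or with the rod covariate. With no filter, 37 passed for microbead over sham in Apoe-/-, 45 for the difference and 41 between genotypes in sham retinas. The difference had 5 on log2(TPM + 1) and 1 with either covariate, and Apoe-/- against wild type in sham retinas had 2 with the rod covariate. Leaving out 1 library gave 0 (without wild-type microbead library 2) to 29 (without wild-type microbead library 1) in wild type, and 1 to 7 between genotypes in microbead retinas.

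Libraries share replicate numbers across groups, and the labels do not say whether the numbers pair them. Over 21 same-number pairs the correlation of the libraries' deviations from their group means ran from -0.166 to 0.223, with 3 above 0.1. With 3 or 4 libraries per group this cannot decide pairing, and the fit reported treats libraries as unpaired. With the replicate block, 7 genes passed in wild type and 1 between genotypes in microbead retinas, and 0 of the list.

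Of 669 values followed for 9 genes, 42 changed sign, none of them past the threshold. For microbead over sham in Apoe-/-, Cyp27a1 was near 0 and became 0.0432 with upper-quartile factors, 0.27 on log2(TPM + 1), 0.021 with length offsets, 0.017 without satellite models, 0.0056 with the compared groups only, 0.013 and 0.0047 with the rod and satellite covariates, 0.026 with the replicate block and 0.11 with no filter. Insig1 became -0.0367 with the satellite covariate, Msmo1 0.0447 on log2(TPM + 1) and 0.0113 with no filter, and Srebf1 -0.33 on log2(TPM + 1) and -0.61 with length offsets. In wild type, log2(TPM + 1) gave 0.02 for Lss, 0.69 for Msmo1, 0.0785 for Sc5d, 0.33 for Scap and 0.13 for Srebf2. There the satellite covariate gave -0.18 for Fads1, -2.30 for Insig1, 0.13 for Msmo1 and 1.08 for Scap, and the rod covariate 0.10 for Msmo1 and 0.39 for Sc5d. Length offsets gave -0.0927 for Fads1 and 0.0075 for Msmo1, and no filter gave 0.0090 for Msmo1. The difference for Sc5d became -0.10 with the rod covariate, and Lss between genotypes in microbead retinas -0.0222 on log2(TPM + 1). Leaving out 1 library at a time, the Apoe-/- values ran from -0.19 to 0.14 for Cyp27a1, -0.34 to 1.11 for Insig1 and -0.35 to 0.0478 for Msmo1, and the wild-type values from -0.0586 to 0.18 for Cyp27a1, -0.11 to 0.49 for Fads1, -0.0746 to 0.69 for Insig1 and -0.20 to 0.18 for Msmo1.

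Depth limits these results: 12 of the 29 genes had a median under 5 reads. Among values that kept their sign, some moved by over 1.5 times. With the satellite covariate, the difference was -2.08 for Scap and 2.06 for Sc5d, and the wild-type value -1.88 for Sc5d and 0.0907 for Srebf1. With length offsets Sc5d was 1.49 in Apoe-/- and 2.05 for the difference, and Srebf1 0.23 in wild type. Srebf1 was 0.10 there without microbead library 3. On log2(TPM + 1) the wild-type values were 1.06 for Cyp27a1 and 0.90 for Insig1. The listed efflux genes, followed in these alternatives after their values were seen, had 1 call of 13 in wild type with no filter and 1 of 10 between genotypes in microbead retinas on log2(TPM + 1).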

Other observations

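Insig1 was high in the same libraries as early-response genes, a list that includes Fos, Jun, Egr1 and Atf3 and that tissue dissociation is known to induce. This was noticed after the values were seen. The 4 libraries with the highest summed level of that list were Apoe-/- microbead library 4 (8680 CPM), wild-type microbead libraries 2 (8440 CPM) and 3 (4530 CPM) and wild-type sham library 3 (3960 CPM). Insig1 was at 31.1, 24.99, 32.01 and 27.6 CPM in these, its 4 highest values. In the other 11 libraries the list summed to 155 to 2530 CPM and Insig1 was at 2.6 to 22.7 CPM. The library with 22.7 CPM, wild-type sham library 2, had 228 CPM of the early-response genes. All 4 top libraries were shared in this way by 74 of 6521 tested genes (1.13%) and by 1 of the 13 tested genes of the list, Insig1. Sc5d shared 3 of them. The 4 top libraries come from 3 groups and differ in depth and in satellite share. In the order given, their TMM-normalised sizes were 642804, 1000258, 749717 and 834059, and their satellite shares 55.4, 40.8, 41.2 and 55.9%. Among the other libraries, the sizes reached at most 690445 and the satellite shares were at least 53.5%. The part of depth or satellite share in this overlap was not tested.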
